A study of Mus musculus with 16 samples.

Results

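The genes described here are the potassium channel genes measured in nuclei of the mouse hippocampus. They were chosen by name and by count: every gene whose symbol starts with Kcn and that had at least 200 unique molecular identifiers (UMIs, each standing for 1 captured transcript) summed over the nuclei of all 16 libraries. Of 32285 genes in the count tables, 99 carry the prefix, and 88 of them reached the threshold. Kcnmb1 with 212 UMIs and Kcnn4 with 223 UMIs lay just inside it, and Kcne4 with 126 UMIs and Kcne1l with 106 UMIs just outside. The prefix covers more than channel pores. Of the 88 genes, 70 encode pore-forming or silent channel subunits, 12 encode auxiliary subunits, and 6 are noncoding genes or, for Kcnrg, a regulator of channel assembly.

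The libraries come from single nuclei of 16 hippocampi, each from a female mouse at 9 months of age, with 4 mice per group. By its label each mouse was Ch25h+/+ or Ch25h-/-, crossed with Tau+ or Tau-, which makes 4 groups. Ch25h encodes cholesterol 25-hydroxylase, an interferon-induced enzyme, and the series' title places it between innate immune activation and tau pathology. The labels name neither the tau line, its promoter nor the Ch25h allele, and give no treatment, batch or pairing.

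Potassium channels let potassium ions leave or enter a cell along their gradient, and in neurons they set the resting potential, end action potentials and space them in time. Voltage-gated (Kv) pores open on depolarization, inward rectifiers and two-pore channels hold cells near rest, and calcium- or sodium-activated channels open on ion entry. In glia the same families buffer extracellular potassium, and in microglia two-pore and inwardly rectifying channels control surveillance and cytokine release.

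After removal of 11045 likely doublets, 136828 nuclei remained, of which 123313 fell into clusters that could be named from marker genes. Each class name below means that the nuclei were like that type by their markers, none of which is a potassium channel gene. The other excitatory neurons are a mixed class held together less strictly, by 3 to 9 of 14 markers per cluster. Libraries held 7601 to 10567 nuclei with median depths of 3642.5 to 6253 UMIs, and clusters left unnamed held 7.75% to 15.7% of a library's nuclei. Among 147873 nuclei before doublet removal, 2700 barcodes occurred in more than 1 library. Ch25h reads did not separate the Ch25h labels: over all nuclei the gene stood at 0.147 to 0.778 counts per 1000000 UMIs (CPM) in libraries labelled Ch25h+/+ and at 0.204 to 0.554 in those labelled Ch25h-/-. The groups are therefore called by their labels throughout. Replicates 3 and 4 of each group also stood apart from replicates 1 and 2 in a model with both terms (edgeR quasi-likelihood test, adjusted p under 0.05). The genes that differed between them were 16.5% of 15085 in dentate granule neurons, 15.2% in CA1, 15.8% in CA3 and 12.4% in inhibitory neurons, 12.8% in astrocytes, 15.9% in oligodendrocytes, 7.56% in OPCs (oligodendrocyte precursors) and 7.39% of 8448 in microglia. The replicate numbers only follow deposition order, so this division has no label. In every group the empty droplets of replicates 1 and 2 were also deeper, with medians of 89 to 136 UMIs per library, than those of replicates 3 and 4, with 66 to 82. Values for the division stand beside the results it touches.

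Together the 88 genes took 1.84% of all UMIs of the nuclei, and Kcnip4 alone took 36.9% of that. The share was largest in neurons. It was 2.50% ± 0.117 (SD, n = 16 libraries) in CA1 pyramidal neurons, 2.45% ± 0.198 (n = 13) in Cajal-Retzius neurons and 2.38% ± 0.0794 (n = 16) in dentate granule neurons. Inhibitory neurons had 1.39% ± 0.0291, and OPCs followed with 1.07% ± 0.025, above every other glial or vascular class. Astrocytes had 0.375% ± 0.0293 and microglia 0.209% ± 0.0192. Without Kcnip4 the share was 1.15% in dentate granule neurons, 1.5% in CA1 and 2.09% in Cajal-Retzius neurons. These are nuclear transcripts, and longer genes had higher levels among them. Over the 88 genes the length of the gene and its level correlated with Pearson's r = 0.745 and Spearman's rho = 0.714. These points share the same libraries, and whether length itself raises the counts was not tested. CPM values therefore compare 1 gene between classes or libraries, and different genes are set against each other as levels only where a value per kilobase of gene span is given.

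**Figure D1:**
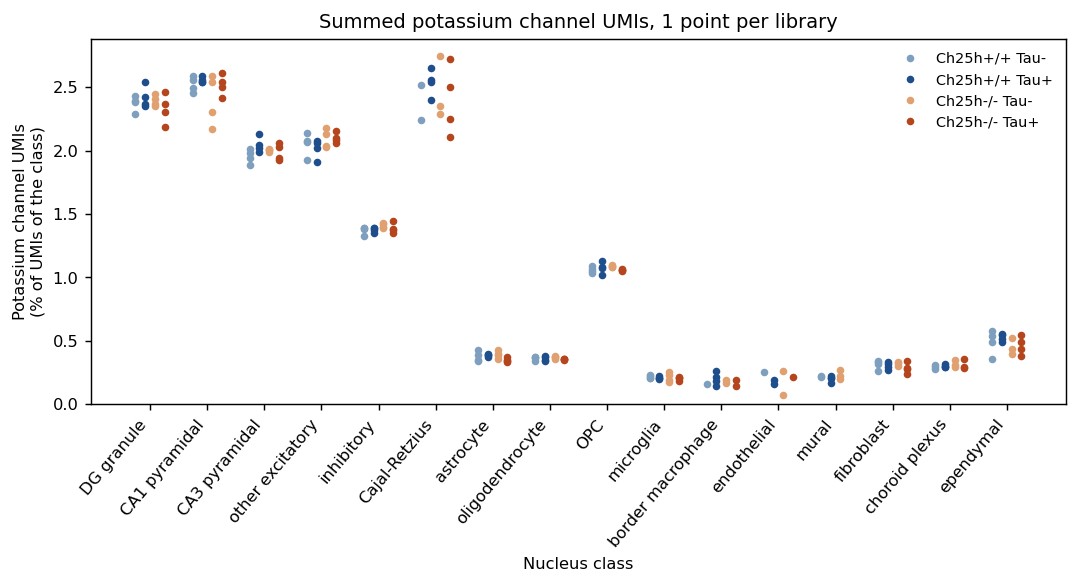
UMIs of the 88 potassium channel genes as a percentage of all UMIs of a class (y axis) for the 16 classes (x axis). Each point is 1 library with at least 20 nuclei of the class, coloured by genotype group. The 6 neuron classes lie above 1.3%, OPCs near 1.07% and the other classes below 0.6%.

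In the 8 classes tested below, nearly every pair of genotype groups overlapped in this share. The exceptions were astrocytes, where the Ch25h+/+ Tau+ libraries (0.374% to 0.393%) lay above the Ch25h-/- Tau+ libraries (0.333% to 0.370%), and OPCs, where the Ch25h-/- Tau- libraries (1.08% to 1.10%) lay above the Ch25h-/- Tau+ libraries (1.05% to 1.07%). These differences were not tested. In microglia it was 0.214% ± 0.0122 (SD, n = 4) in the Ch25h+/+ Tau- group, 0.206% ± 0.0108 in Ch25h+/+ Tau+, 0.213% ± 0.0347 in Ch25h-/- Tau- and 0.201% ± 0.0149 in Ch25h-/- Tau+. In dentate granule neurons the 4 groups had means from 2.33% to 2.42%.

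Levels below are CPM, UMIs of a gene per 1000000 UMIs of the same class and library, given as mean ± SD over libraries with at least 20 nuclei of the class. They describe where each gene was highest, and differences between classes were not tested. Of the 88 genes, 43 were highest in a class of neurons. In 24 genes the lowest library of the highest class lay above every library of the class that came second, and in the other 64 the ranges of those classes overlapped. A gene given below without a word on overlap may belong to either set. Of all 88, 18 stayed under 10 CPM in every class.

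**Figure D2:**
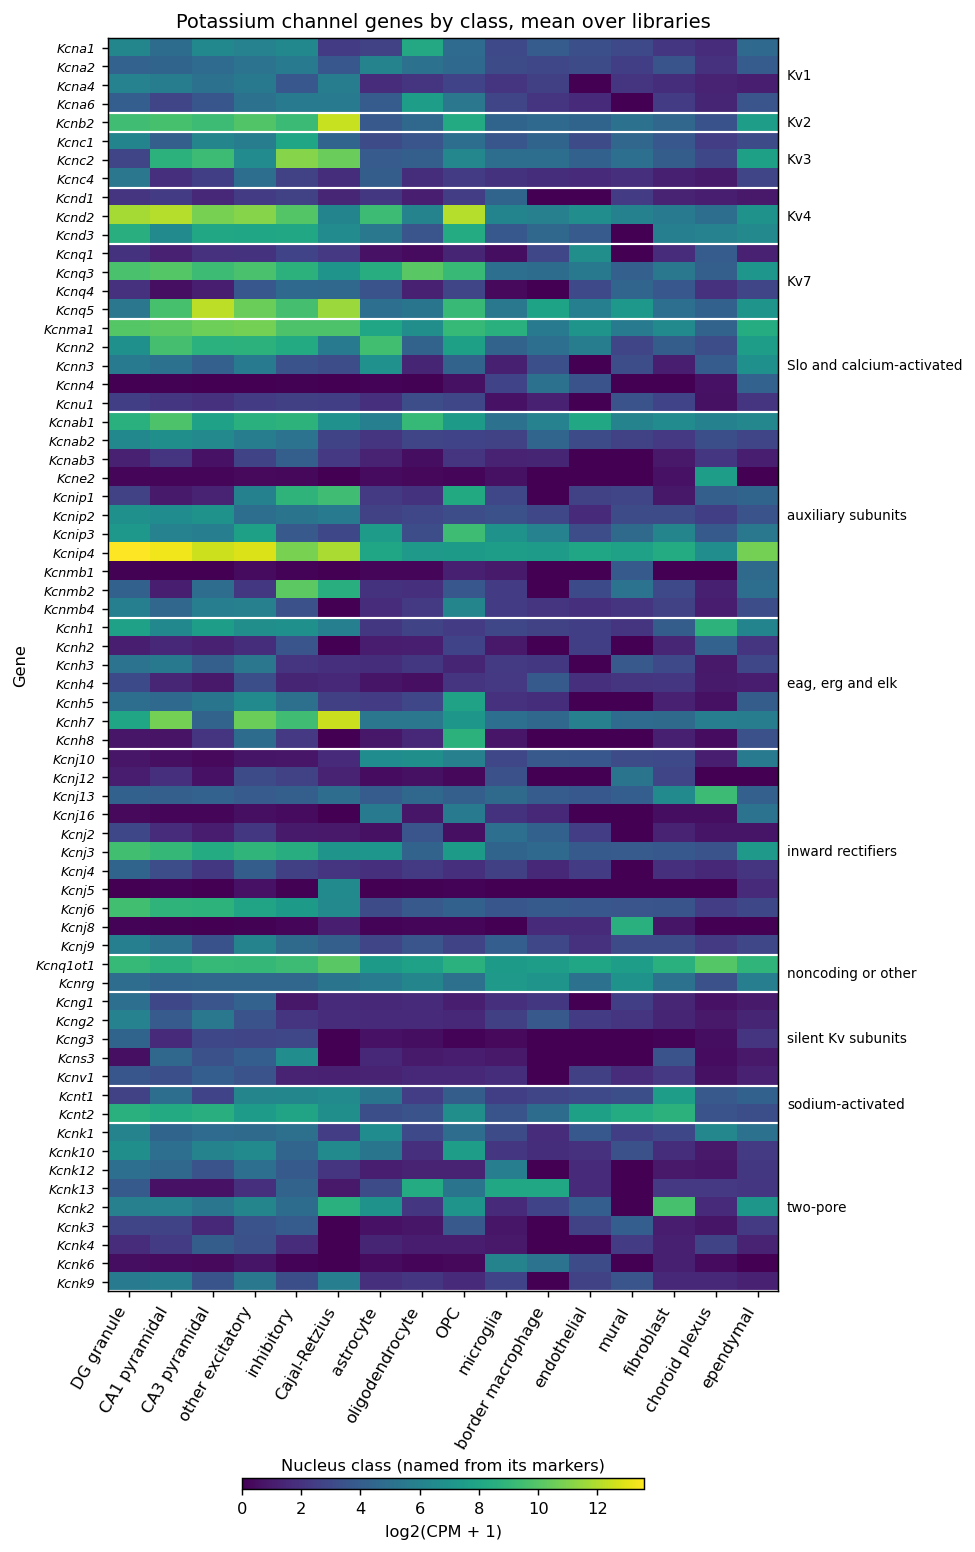
Mean level over libraries, as log2(CPM + 1) on the colour scale, of 67 of the 70 genes with at least 10 CPM in any class (y axis, ordered by family, 3 not shown) in the 16 classes (x axis). Single bright cells in otherwise dark lines mark Kcne2 in choroid plexus, Kcnj8 in mural cells and Kcnh8 in OPCs, while Kcnip4 is bright in every class of neurons. Kcnh8 was also raised in a cluster within the other excitatory class, which the class mean does not show.

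The Kv4 family carries the transient A-type current of dendrites, and the Kcnip genes encode the calcium-binding KChIP proteins that escort Kv4 pores. Kcnip4 was the most abundant member by UMIs. It stood at 12270 ± 564 CPM in dentate granule neurons (n = 16, lowest library 11094, median 12347, highest 13275) and at 10004 ± 886 CPM in CA1 neurons, which overlapped. Per kilobase of its span, which covers 1135 kb on chromosome 5, the granule level was 10.8 CPM. Kcnd2, a Kv4 pore, had 4277 ± 248 CPM in CA1 neurons and 4248 ± 284 CPM in OPCs, with overlapping ranges (3729 to 4821 and 3597 to 4814). Kcnd3 was highest in granule neurons at 372 ± 22 CPM and had 332 ± 45.6 CPM in OPCs. Kcnd1, the remaining Kv4 pore, was highest in microglia at 19.6 ± 6.89 CPM, overlapping inhibitory neurons at 5.23 ± 1.18. Kcnip3 was highest in OPCs, 656 ± 122 CPM against 209 ± 19.7 in the other excitatory neurons, and those ranges did not overlap. Kcnip2 was highest in CA3 neurons at 121 ± 15.7 CPM, and Kcnip1 in Cajal-Retzius neurons at 690 ± 182 CPM, overlapping inhibitory neurons at 457 ± 49.9.

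Kv7 channels pass the M-current that restrains repetitive firing. Kcnq5 was highest in CA3 neurons. It had 4793 ± 343 CPM there (n = 16, lowest 4266, median 4826, highest 5447) and 2991 ± 441 CPM in Cajal-Retzius neurons, without overlap. Kcnq3 was highest in oligodendrocytes at 1098 ± 61.8 CPM, a range that overlapped CA1 neurons at 1026 ± 76.4 CPM. Kcnq1, a Kv7 gene better known from heart and epithelia, was highest in endothelial cells. Its level there was 104 ± 46.6 CPM (n = 6), and the endothelial nuclei of all 16 libraries held only 49 UMIs. Each of the 6 libraries exceeded the choroid plexus level of 14.6 ± 7.21 CPM. The Kcnq1 gene overlaps the noncoding Kcnq1ot1 on the opposite strand. The sources used here do not state how the counting treated strand, so whether reads of such a pair were kept apart is not known. Over the nuclei of all 16 libraries Kcnq1ot1 had 469048 UMIs and Kcnq1 2830. In all, 35 members overlap a gene on the opposite strand, and for each the treatment of strand is not known either. Kcnq1ot1 itself was highest in Cajal-Retzius neurons at 1113 ± 198 CPM and choroid plexus at 1025 ± 103 CPM.

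Kv1 genes encode low-threshold channels known from axons. Kcna1 and Kcna6 were both highest in oligodendrocytes. Kcna1 had 292 ± 55.3 CPM there (lowest 222, median 271, highest 433) against 80.6 ± 13.2 in CA3 neurons, and Kcna6 had 187 ± 25.2 against 50.1 ± 24.6 in Cajal-Retzius neurons, both without overlap. Kcna4 was highest in granule neurons at 64.0 ± 11.8 CPM, and Kcna2 in astrocytes at 66.1 ± 10.4 CPM, overlapping inhibitory neurons at 48.1 ± 4.81. RNA released from other cells can enter such values. From the profile of empty droplets, that background could supply 1.58% of the Kcna1 UMIs of oligodendrocytes. Over members it was a median of 59.2% in oligodendrocytes and 34.7% in microglia, against 1.72% in granule neurons. More than 50% of the UMIs could come from background for 25 of 42 members tested in oligodendrocytes, 11 of 42 in astrocytes and 9 of 21 in microglia.

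Kv2 channels are the delayed rectifiers of the cell body, and the Kcnh genes encode the eag, erg and elk channels. Cajal-Retzius neurons stood out for one gene of each. Kcnb2 had 5621 ± 1289 CPM there (n = 13, lowest 3755, median 5661, highest 8744) and 953 ± 78.0 CPM in the other excitatory neurons, a ratio of 5.90. Kcnh7, an erg channel, had 5719 ± 700 CPM (lowest 4653, median 5693, highest 6782) against 1723 ± 224 in CA1 neurons, a ratio of 3.32. Neither pair of ranges overlapped. Kcnh3 was highest in CA1 neurons at 43.6 ± 5.44 CPM, overlapping the other excitatory neurons, and the remaining 6 Kcnh genes were highest outside neurons. Kcnh8, an elk channel, had 430 ± 33.7 CPM in OPCs (lowest 365, median 434, highest 488). The mixed class of other excitatory neurons came second at 27.3 ± 6.64 CPM, a ratio of 15.8. Within that class Kcnh8 led the genes raised in a cluster of 1922 nuclei, so its class mean hides a higher level there. Kcnh5 was also highest in OPCs, at 228 ± 29.2 CPM. Kcnh1 was highest in choroid plexus at 444 ± 117 CPM, overlapping granule neurons at 214 ± 17.9.

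Kv3 channels close quickly and allow fast spiking. Kcnc2 and Kcnc1 were highest in inhibitory neurons, Kcnc2 at 2191 ± 103 CPM (lowest 2041, median 2179, highest 2362) and Kcnc1 at 262 ± 25.5 CPM. Kcnc4 was instead highest in dentate granule neurons, at 41.3 ± 4.96 CPM. Silent subunits form no channel alone and alter Kv2 pores. Of these 10 genes, 5 were highest in granule neurons, among them Kcng2 at 63.4 ± 7.88 CPM, Kcng1 at 29.9 ± 3.64 CPM and Kcng3 at 19.8 ± 4.76 CPM. Kcng1 overlapped the other excitatory neurons, at 18.3 ± 3.79 CPM. Kcns3 was highest in inhibitory neurons, 99.0 ± 16.7 CPM against 22.5 ± 4.95 in CA1. Kcnv1 was highest in CA3 neurons at 15.8 ± 3.53 CPM, overlapping granule neurons at 11.2 ± 2.35.

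The inhibitory neurons split further by their markers into Pvalb, Sst, Vip, Cck and Lamp5 types, with 785 to 2158 nuclei each, and 2300 nuclei of no such type. Of the 1115 nuclei of the Vip type, 313 were named from Calb2, Penk, Crh and Prox1, without Vip itself raised 2-fold. The Kv3 genes Kcnc1 and Kcnc2 were highest in the type named from Pvalb, a marker known from fast-spiking cells. Kcnc2 had 3572 ± 276 CPM (n = 16) there and 2112 ± 326 in the Vip type, and the lowest value was 595 ± 123 in the Cck type. Kcnc1 had 427 ± 36.1 CPM in the Pvalb type and 223 ± 25.3 in the Cck type. The Pvalb type was also highest for Kcna1 (175 ± 47.1 CPM against 67.4 ± 16.9 in the Lamp5 type), for the Kv4 partner Kcnip2 (106 ± 24.4 against 17.1 ± 8.89 in the Vip type) and for Kcnma1 (1731 ± 148 against 931 ± 61.6 in the Sst type). Other types led for other families. Kcnt2, a sodium-activated channel, had 1184 ± 114 CPM in the Vip type, 272 ± 70.2 in the Cck type and 39.1 ± 19.2 in the Pvalb type. Kcns3 had 278 ± 43.5 CPM in the Lamp5 type, 87.5 ± 22.6 in the Pvalb type and 1.78 ± 2.42 in the Vip type. Kcnq5 had 2858 ± 329 CPM in the Cck type and 188 ± 85.4 in the Pvalb type, and Kcnip1 had 1190 ± 143 CPM in the Cck type against 456 ± 82.3 in the Vip type. The Vip type had 9010 ± 985 CPM of Kcnip4 and the Lamp5 type 525 ± 219.

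**Figure D3:**
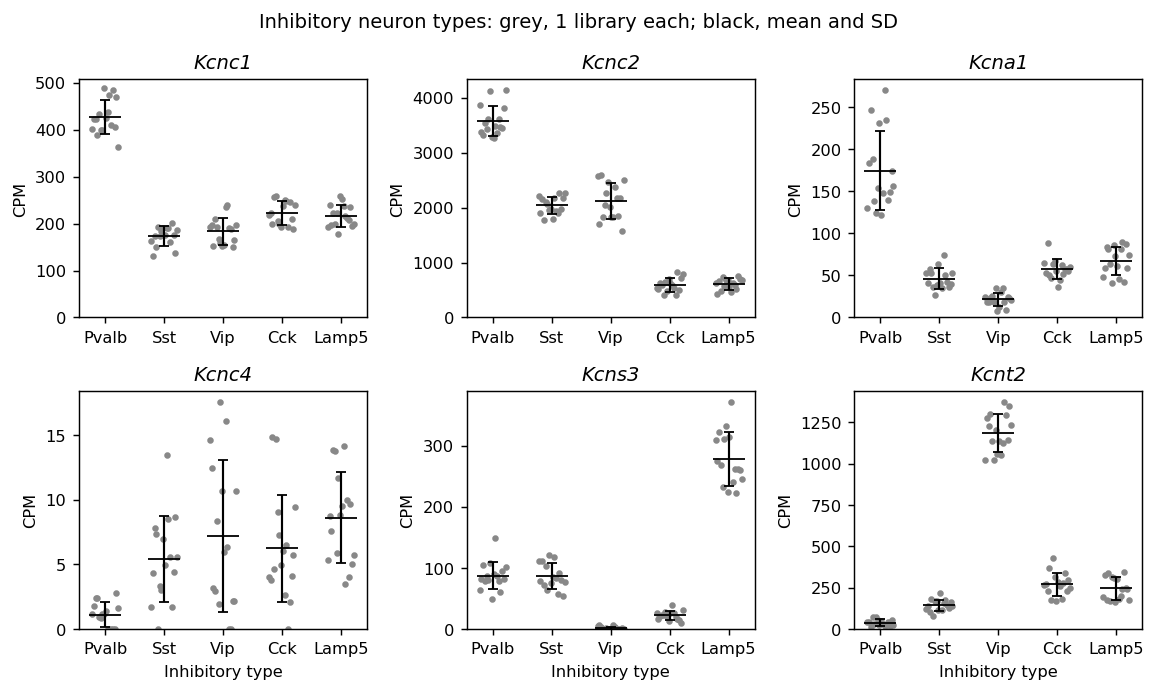
Level in CPM (y axis) of 6 genes in the 5 inhibitory types (x axis). Each grey point is 1 of 16 libraries, and the black lines are the mean and SD. Kcnc1, Kcnc2 and Kcna1 are highest in the Pvalb type, Kcns3 in the Lamp5 type and Kcnt2 in the Vip type, while Kcnc4 stays under 20 CPM in all 5 types.

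Kcnma1 encodes the large-conductance calcium-activated (BK) pore and the Kcnmb genes its beta subunits. Kcnma1 was broad, highest in the other excitatory neurons at 1709 ± 70.2 CPM, just above CA3 neurons at 1522 ± 60.7 without overlap. Kcnmb2 was far more restricted: 1128 ± 60.8 CPM in inhibitory neurons (lowest 1019, median 1127, highest 1232) against 361 ± 206 in Cajal-Retzius neurons. Within inhibitory neurons Kcnmb2 was highest in the Sst type at 1319 ± 134 CPM, overlapping the Lamp5 type at 1138 ± 132. Kcnmb4 was highest in OPCs at 70.9 ± 15.4 CPM. The small-conductance channel gene Kcnn2 had overlapping levels in CA1 neurons (771 ± 47.9 CPM) and astrocytes (707 ± 178), and Kcnn3 in astrocytes (117 ± 16.3) and ependymal cells (112 ± 40.1). Both sodium-activated genes were highest in fibroblasts. Kcnt2 had 426 ± 103 CPM there, overlapping granule neurons at 387 ± 17.9. Kcnt1 had 197 ± 53.2 CPM, overlapping Cajal-Retzius neurons at 90.0 ± 39.8. Kcnab1, a beta subunit of Kv1 channels, was highest in CA1 neurons at 883 ± 71.5 CPM, above oligodendrocytes at 550 ± 76.4.

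Inward rectifiers pass potassium inward more easily than outward. Kcnj3 and Kcnj6 encode the G protein-gated GIRK pores that answer inhibitory receptors, and both were highest in granule neurons. Kcnj3 had 709 ± 54.9 CPM there and 531 ± 39.6 in CA1 neurons, and Kcnj6 had 698 ± 56.0 and 451 ± 28.6, without overlap. Their partner Kcnj9 was highest in the other excitatory neurons at 65.6 ± 12.5 CPM, overlapping granule neurons at 56.6 ± 11.2. Kcnj10, the glial pore that clears potassium, had 107 ± 24.5 CPM in oligodendrocytes (lowest 76.2, median 102, highest 152) and 97.7 ± 17.3 in astrocytes (lowest 74.8, median 94.5, highest 134), which overlapped. Its partner Kcnj16 had 47.3 ± 8.82 CPM in OPCs and 47.2 ± 9.90 in astrocytes. Kcnj8, the pore of vascular ATP-sensitive channels, had 389 ± 174 CPM in mural cells (n = 9, lowest 210, median 303, highest 716), the cells whose other markers include its partner Abcc9. Over all 16 libraries it had 174 UMIs in mural cells, 9 in endothelial cells and none in microglia, choroid plexus or ependymal cells. Kcnj5 reached 85.6 ± 44.8 CPM in Cajal-Retzius neurons (n = 13), with 80 UMIs over all 16 libraries.

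The choroid plexus secretes cerebrospinal fluid, and its epithelium had high levels of 2 members that were low in neurons. Kcne2, a small auxiliary subunit, had 198 ± 42.2 CPM there (n = 13, lowest 135, median 189, highest 277), with 1955 UMIs over all 16 libraries. The next class, fibroblasts, had 0.589 ± 1.45 CPM and 5 UMIs, and Cajal-Retzius, border macrophage, endothelial, mural and ependymal nuclei had none. Kcnj13, an inward rectifier of transporting epithelia, had 636 ± 106 CPM in choroid plexus (lowest 479, median 602, highest 791) and 87.8 ± 29.9 in fibroblasts. Every library of choroid plexus was above every library of the other classes for both genes. Per kilobase of span these were among the densest signals, 76.1 CPM for Kcnj13 and 34.5 CPM for Kcne2, compared with 57.3 CPM for Kcnj8 in mural cells and 48.7 CPM for Kcna1 in oligodendrocytes. Kcnj13 overlaps Gigyf2 on the opposite strand. Whether its mean level of 12.2 to 27.8 CPM in all remaining classes includes reads of that gene was not tested.

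The promoter windows of these genes are shown because Kcne2 and Kcnj13 were the members highest in choroid plexus without overlap. Which start the nuclei used was not measured. They are RefSeq windows at annotated starts, the first of 2 for Kcne2, on GRCm38.p6, 250 bases before to 50 bases after the start, written along the gene's own strand. Kcne2 is at chr16:92292139-92292438 on the plus strand and Kcnj13 at chr1:87394680-87394979 on the minus strand. Capitals mark matches, on either strand, to the TATA box (TATAAA), the CCAAT box (CCAAT) and the GC box (GGGCGG).
Kcne2: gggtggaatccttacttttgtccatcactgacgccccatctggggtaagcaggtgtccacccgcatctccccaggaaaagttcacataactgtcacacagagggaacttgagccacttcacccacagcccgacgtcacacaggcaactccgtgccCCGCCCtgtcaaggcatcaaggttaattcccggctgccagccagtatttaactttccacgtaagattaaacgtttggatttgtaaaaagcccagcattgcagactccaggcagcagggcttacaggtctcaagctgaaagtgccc
Kcnj13: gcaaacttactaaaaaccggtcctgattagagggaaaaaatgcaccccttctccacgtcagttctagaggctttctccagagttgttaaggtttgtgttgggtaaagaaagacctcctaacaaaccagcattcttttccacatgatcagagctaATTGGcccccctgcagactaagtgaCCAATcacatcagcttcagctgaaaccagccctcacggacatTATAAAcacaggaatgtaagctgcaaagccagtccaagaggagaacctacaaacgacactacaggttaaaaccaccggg
The Kcne2 window held 1 GC box, read from the other strand, and its second annotated start held none of the motifs. The Kcnj13 window held 1 TATA box and 2 CCAAT boxes, and it was the least GC-rich of those printed here at 46.0%. A TATA box was present in 13.6% of all 32851 windows and in 4 of the 86 windows of the 62 members that matched the table, those of Kcnab1, Kcnj13, Kcnj16 and Kcnj9. A GC box was present in 35.7% of all windows and in 43 of the 86. A match describes letters in this window and not a site in use.

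Two-pore channels pass the background current that holds the resting potential. Kcnk2 was highest in fibroblasts at 784 ± 117 CPM, overlapping Cajal-Retzius neurons at 395 ± 172. Kcnk10 was highest in OPCs at 196 ± 29.4 CPM. Kcnk1 was highest in astrocytes at 95.6 ± 27.2 CPM, overlapping choroid plexus at 77.5 ± 11.6. The two-pore genes described for the immune classes are Kcnk13, Kcnk6 and Kcnk12. Kcnk13, which encodes THIK-1, the background channel of resting microglia, had 286 ± 38.2 CPM in microglia, 286 ± 93.8 in border macrophages and 323 ± 39.6 in oligodendrocytes, with overlapping ranges. Kcnk6 had 66.0 ± 16.1 CPM in microglia and 35.5 ± 24.8 in border macrophages, which overlapped. Kcnk12, the close relative of Kcnk13 that encodes THIK-2, had 54.8 ± 20.3 CPM in microglia and 29.7 ± 3.8 in the other excitatory neurons. These ranges overlapped too, and the microglial mean pools Tau+ and Tau- libraries, which differed for this gene as described below.

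For the genotype comparisons, UMIs were summed per library and class and compared with edgeR's quasi-likelihood test over all genes of each of 8 classes: granule, CA1, CA3 and inhibitory neurons, astrocytes, oligodendrocytes, OPCs and microglia. The other excitatory neurons, with 22887 nuclei, were not among the classes chosen for testing. A gene was called changed when its p, adjusted over all genes of that class and comparison, was under 0.05. In all, 78 of the 88 members had enough UMIs to be tested in at least 1 class, 15 of them in all 8, which gave 404 tests of members in each comparison. The fold changes are log2 values. Their standard errors (SE) were taken as the absolute fold change over the square root of the test's F statistic, which is an approximation. A change in RNA per nucleus and a change in the mix of nuclei within a class cannot be told apart in such sums. In the 16 libraries the labels name separate samples, and the p-values measure the spread between them.

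With all 16 libraries and the settings described, all potassium channel genes that edgeR called lay in microglia, and they were called between Tau+ and Tau-. Other settings called members in other classes, named with those settings below. Over all 8 classes, the averaged comparison called 1 member higher and 2 lower in 404 tests, beside 1.14% of all tests over genes. With the Ch25h labels averaged, 3 of the 21 members tested in microglia passed, 14.3%, beside 8.97% of all 8448 genes tested there (458 higher and 300 lower in Tau+). Kcnj2 rose, and Kcnk12 and Kcnrg fell. Under the same settings the other 7 classes gave 0 calls in 383 tests with edgeR and 0 with DESeq2. With edgeR 47 of these tests had an unadjusted p under 0.05. By class they ran from 5 of 72 in granule neurons (1334 of 15085 genes) to 10 of 59 in CA3 neurons (1296 of 13859 genes). Of all genes in those 7 classes, 0.415% were called, and 2.35% in astrocytes. Since 3 of 21 stands near the share over all genes, the count is no result about potassium channel genes as a group.

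**Figure D4:**
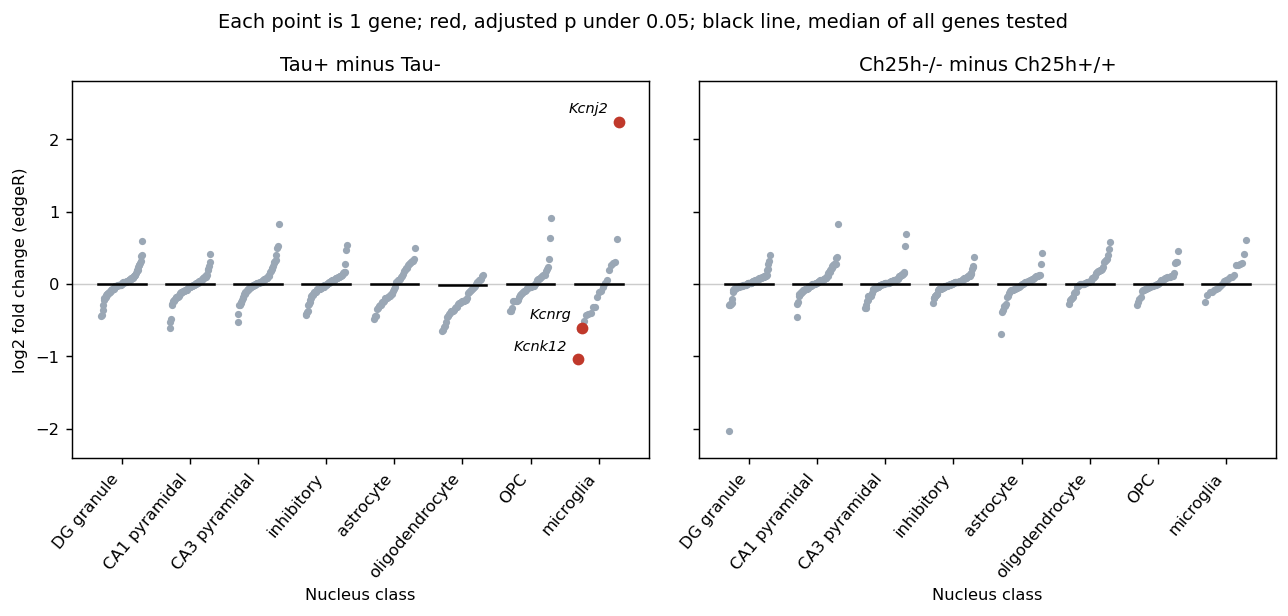
Log2 fold change (y axis) of every member tested in each of 8 classes (x axis), for Tau+ minus Tau- averaged over the Ch25h labels (left) and for Ch25h-/- minus Ch25h+/+ averaged over the Tau labels (right). Red points passed the test at an adjusted p under 0.05, and black lines are medians of all genes. Kcnj2, Kcnrg and Kcnk12 in microglia are the red points on the left, and none is red on the right.

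Kcnj2 encodes the strong inward rectifier Kir2.1, which is known to hold the membrane potential of microglia near the potassium equilibrium. In microglia of the Ch25h+/+ Tau- libraries it stood at 11.2, 5.01, 10.0 and 8.29 CPM (replicates 1 to 4), and in Ch25h-/- Tau- at 11.9, 12.7, 7.57 and 19.2 CPM. The Ch25h+/+ Tau+ libraries had 97.9, 45.1, 19.1 and 62.0 CPM and the Ch25h-/- Tau+ libraries 64.6, 57.7, 26.6 and 30.4 CPM. All 8 Tau+ libraries were above 19 CPM and 7 of the 8 Tau- libraries below 13 CPM. The ranges overlapped only through Ch25h+/+ Tau+ replicate 3 and Ch25h-/- Tau- replicate 4. The averaged log2 fold change was 2.24 (SE 0.337, adjusted p = 3.98e-04). It was 2.72 (SE 0.5, adjusted p = 0.0112) between the Ch25h+/+ groups, while the 1.76 (SE 0.448, adjusted p = 0.0516) between the Ch25h-/- groups did not pass. DESeq2 called that last change (1.75, adjusted p = 0.0270). So did edgeR without a filter on low counts, with doublets kept, with a term for the replicate division, in replicates 1 and 2 alone, and without Ch25h+/+ Tau+ replicate 1 or 3 or Ch25h-/- Tau+ replicate 3. The difference between these effects was -0.97 (SE 0.748, adjusted p = 1), so the effects were not shown to differ. The Tau- values rest on 2 to 8 UMIs per library, and the Tau+ values on 7 to 95.

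Kcnk12 moved the other way. Its microglial level was 85.4, 67.7, 76.9 and 62.2 CPM in Ch25h+/+ Tau- and 69.1, 80.1, 75.7 and 67.3 CPM in Ch25h-/- Tau-. It was 32.0, 37.8, 35.5 and 31.0 CPM in Ch25h+/+ Tau+ and 26.1, 44.7, 49.8 and 35.2 CPM in Ch25h-/- Tau+. Every Tau+ library (26.1 to 49.8 CPM) lay below every Tau- library (62.2 to 85.4 CPM). Kcnk12 was the only member without overlap in any of the 8 classes, beside 0.84% of all genes in microglia. The averaged log2 fold change was -1.04 (SE 0.152, adjusted p = 1.33e-04), from -1.15 (SE 0.219, adjusted p = 0.0112) between the Ch25h+/+ groups and -0.93 (SE 0.209, adjusted p = 0.0247) between the Ch25h-/- groups. The difference between these effects was 0.23 (SE 0.302) and was not called. Between the Ch25h-/- groups the call ended without Ch25h-/- Tau+ replicate 1 or 4, or without any of the 4 Ch25h-/- Tau- libraries, with adjusted p from 0.0528 to 0.127 and log2 fold changes from -0.97 to -0.76.

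Kcnrg encodes a protein that binds Kv subunits and lowers their assembly. Its microglial level was 193, 205, 164 and 153 CPM in Ch25h+/+ Tau- and 147, 119, 197 and 194 CPM in Ch25h+/+ Tau+, groups that overlapped. It was 262, 228, 186 and 137 CPM in Ch25h-/- Tau- and 78.3, 78.5, 149.5 and 104 CPM in Ch25h-/- Tau+, overlapping only through Ch25h-/- Tau- replicate 4 and Ch25h-/- Tau+ replicate 3. The averaged log2 fold change was -0.61 (SE 0.156, adjusted p = 0.0156). Between the Ch25h-/- groups it was -1.03 (SE 0.221, adjusted p = 0.0242), and between the Ch25h+/+ groups -0.18 (SE 0.220, adjusted p = 0.775), but the test of the difference, -0.84 (SE 0.312, adjusted p = 1), did not pass. The call between the Ch25h-/- groups ended without Ch25h-/- Tau+ replicate 1, 2 or 4 or Ch25h-/- Tau- replicate 1 or 2, with adjusted p from 0.0684 to 0.117 and log2 fold changes from -1.04 to -0.90. Kcnrg lies inside the opposite-strand gene Dleu2, whose microglial levels were 1357 ± 150 CPM in Ch25h+/+ Tau-, 1437 ± 202 in Ch25h+/+ Tau+, 1473 ± 144 in Ch25h-/- Tau- and 1289 ± 174 in Ch25h-/- Tau+. The averaged log2 fold change of Dleu2 was -0.08 (SE 0.089, adjusted p = 0.696), so it was not called. In the other 7 classes the averaged change of Kcnrg ran from -0.52 in CA3 neurons to -0.12 in oligodendrocytes and was not called (adjusted p from 0.528 to 0.929).

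**Figure D5:**
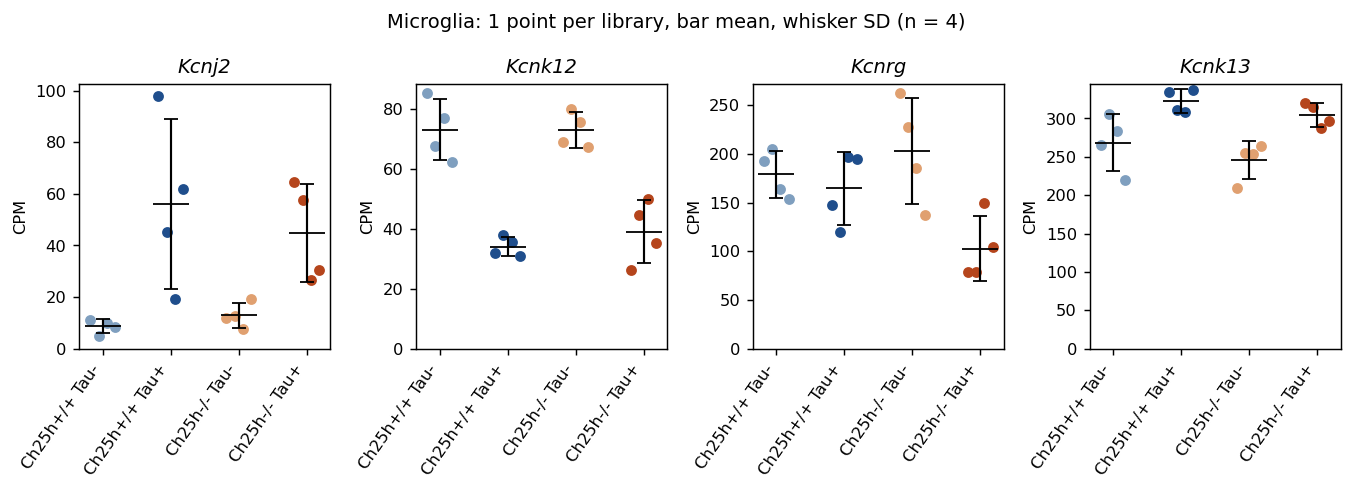
Microglial level in CPM (y axis) of Kcnj2, Kcnk12, Kcnrg and Kcnk13 in the 4 genotype groups (x axis). Each point is 1 library, and the lines are mean and SD (n = 4). Kcnk12 is below 50 CPM in all 8 Tau+ libraries and above 62 CPM in all 8 Tau- libraries, and Kcnj2 spreads from 19.1 to 97.9 CPM in Tau+.

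The division of replicates bears on all 3 calls. With a term for it, the averaged changes were 2.26 (adjusted p = 7.72e-06) for Kcnj2, -1.04 (adjusted p = 2.28e-05) for Kcnk12 and -0.63 (adjusted p = 0.0133) for Kcnrg. In replicates 1 and 2 alone they were 2.67, -1.12 and -1.13, all called, beside 9.74% of all genes. In replicates 3 and 4 alone they were 1.58 (adjusted p = 0.172), -0.94 (adjusted p = 0.135) and -0.03 (adjusted p = 0.975), none called, with 0.0262% of all genes called there. Whether the changes differ between the divisions was not tested. With at least 1000 UMIs per nucleus Kcnrg was at -0.45 (adjusted p = 0.122). Each of the 3 averaged calls held when any single library was left out.

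Genes listed as markers of other cells were present in the microglial sums. The 8 microglial markers summed to 9479, 11295 and 13372 CPM (lowest, median and highest Tau+ library) and to 11979, 13419 and 14880 CPM in Tau- libraries. Border macrophage markers summed to at most 43.7 CPM in Tau+ and 33.4 in Tau-, with medians of 6.11 and 12.9. Most neuron lists were lower in Tau+: the medians were 103 CPM in Tau+ and 140 in Tau- for granule markers, 374 and 498 for CA1, 134 and 182 for other excitatory and 52.4 and 80.8 for inhibitory markers. The CA3 markers were the exception, at 190 and 129. Astrocyte markers had medians of 404 and 476 and those of newly formed oligodendrocytes 739 and 855. Choroid plexus markers, at 320 and 242, and oligodendrocyte markers, at 323 and 303, were higher in Tau+. The part of all these markers in the changes was not tested. The lists may also hold genes that microglia express themselves, so these sums are no measure of RNA from other cells. Background RNA could supply 1.16% of the Kcnj2 UMIs, 2.66% of those of Kcnk12 and 1.57% of those of Kcnrg in microglia. In neurons and oligodendrocytes the averaged change of Kcnj2 was 0.02 in granule neurons, -0.08 in CA1 neurons and 0.03 in oligodendrocytes, and that of Kcnk12 was -0.13 in granule neurons and 0.09 in inhibitory neurons, none called. The Tau+ groups had more microglial nuclei, 1747 with the Ch25h+/+ and 1731 with the Ch25h-/- label, than the Tau- groups with 1145 and 1198.

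Other microglial members were not called with the settings described. Kcnk13 was at 335, 311, 309 and 338 CPM in Ch25h+/+ Tau+, at 321, 315, 287 and 296 CPM in Ch25h-/- Tau+, at 265, 306, 284 and 220 CPM in Ch25h+/+ Tau- and at 210, 255, 254 and 264 CPM in Ch25h-/- Tau-. The Tau+ libraries were mostly higher, with an overlap through Ch25h+/+ Tau- replicate 2, and the averaged change of 0.26 (SE 0.0860, adjusted p = 0.0564) just missed the threshold. Kcnk6 had an averaged change of -0.42 (SE 0.155, adjusted p = 0.0919), Kcnip3 of -0.41 (SE 0.153, adjusted p = 0.1) and Kcnma1 of 0.19 (SE 0.101, adjusted p = 0.273). Kcnk13 was called without Ch25h+/+ Tau- replicate 2 (0.29), and Kcnk6 (-0.48) and Kcnip3 (-0.47) without Ch25h+/+ Tau+ replicate 3. With a term for the replicate division, Kcnk13 (0.26, adjusted p = 0.0344) and Kcnip3 (-0.44, adjusted p = 0.0234) were called. Kcnk13 also had the smallest spread within groups of the microglial members, 8.62% of its mean, whereas Kcnj9 had the largest at 63.9%.

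The promoter windows of the 2 microglial members with calls in both Ch25h+/+ and averaged comparisons are shown for reference. Kcnj2 is at chr11:111065914-111066213 on the plus strand and Kcnk12 at chr17:87797945-87798244 on the minus strand (GRCm38.p6). Capitals mark the motifs above and the E-box (CACGTG), which reads the same on both strands, and no marked motifs overlap.
Kcnj2: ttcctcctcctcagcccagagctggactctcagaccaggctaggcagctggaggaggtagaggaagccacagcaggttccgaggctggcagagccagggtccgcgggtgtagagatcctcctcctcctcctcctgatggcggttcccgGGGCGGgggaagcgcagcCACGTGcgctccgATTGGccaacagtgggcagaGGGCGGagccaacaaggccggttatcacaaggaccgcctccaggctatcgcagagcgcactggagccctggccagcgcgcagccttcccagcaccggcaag
Kcnk12: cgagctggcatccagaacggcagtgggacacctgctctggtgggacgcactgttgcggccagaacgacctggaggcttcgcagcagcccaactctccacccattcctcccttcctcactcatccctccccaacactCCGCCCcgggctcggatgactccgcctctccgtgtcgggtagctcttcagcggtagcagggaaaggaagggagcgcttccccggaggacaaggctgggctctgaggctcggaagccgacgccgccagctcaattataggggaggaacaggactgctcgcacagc
The Kcnj2 window had 2 GC boxes, 1 E-box and 1 CCAAT box, and the Kcnk12 window 1 GC box read from the other strand. Both are GC-rich, at 66.7% and 64.3%, beside a median of 52.7% over all windows. Neither held the PU.1 motif GAGGAAGT (3.2% of all windows) or the interferon-stimulated response element, searched as a pair of TTTC words 2 bases apart (3.44% of all windows), and 0 and 6 of the 86 windows of members did. A missing match says only that these letters are not in this window.

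The tau comparison within each Ch25h label gave the same classes. Between the Ch25h+/+ groups 2 members were called, Kcnj2 and Kcnk12 in microglia, beside 2.33% of all genes there and 0.233% over the 8 classes. Of the 404 tests of members, 24 had an unadjusted p under 0.05. By class these ran from 1 of 72 in granule neurons (878 of 15085 genes) to 5 of 21 in microglia (1267 of 8448 genes). Between the Ch25h-/- groups 2 were called, Kcnk12 and Kcnrg in microglia, beside 1.4% of all genes there and 0.157% over the 8 classes. Here 56 of the 404 tests had an unadjusted p under 0.05. By class they ran from 6 of 72 in granule neurons (1072 of 15085 genes) to 5 of 21 in microglia (1190 of 8448 genes). DESeq2 called 6, beside 0.433% of all genes, which were Kcnj2, Kcnk12 and Kcnrg in microglia, Kcnh1 in CA3 neurons and Kcnmb2 and Kcnrg in granule neurons. The counts changed with the settings. The averaged count of 3 was 8 without a filter on low counts (0.86% of all genes), 7 with a term for the replicate division (1.81%), 8 in replicates 1 and 2 alone (1.62%) and 0 in replicates 3 and 4 alone (0.095%). Between the Ch25h+/+ groups it was 4 in replicates 1 and 2 alone (0.653%) and 0 in replicates 3 and 4 alone (0.0657%). Between the Ch25h-/- groups it was 5 without a filter (0.273%), 5 in replicates 1 and 2 alone (0.591%), and 0 to 4 with single libraries left out.

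The members gained in these settings were spread over several classes. The term for the replicate division added Kcnk13 and Kcnip3 in microglia and Kcnma1 and Kcnk1 in astrocytes to the averaged comparison. Without a filter, Kcnk13, Kcnmb2 and Kcnq3 in microglia, Kcnma1 in astrocytes and Kcnn2 in OPCs were added. Replicates 1 and 2 alone added Kcnip3 in microglia, CA3 neurons and OPCs, with changes of -0.67, 0.54 and -0.39, and Kcnq3 in astrocytes and Kcnma1 in oligodendrocytes. Between the Ch25h-/- groups, Kcnmb2 in granule neurons was called without Ch25h-/- Tau+ replicate 3 (-1.06), and Kcnrg in granule neurons without Ch25h-/- Tau- replicate 4 (-1.24).

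For each of the 13 families the member with the highest mean CPM over classes, a choice that favours long genes, was followed across the 4 groups. Kcnip4 in granule neurons averaged 12368 ± 459 CPM in Ch25h+/+ Tau-, 12510 ± 519 in Ch25h+/+ Tau+, 12258 ± 221 in Ch25h-/- Tau- and 11942 ± 910 in Ch25h-/- Tau+ (n = 4 each), and its averaged tau change was -0.02 (SE 0.0431). Kcnc2 in inhibitory neurons averaged 2249 ± 145, 2168 ± 118, 2224 ± 50.4 and 2122 ± 47.5 CPM in the same order, a change of -0.07 (SE 0.0412). Kcnq5 in CA3 neurons averaged 4750 ± 291, 4982 ± 333, 5016 ± 209 and 4424 ± 222 CPM, an averaged change of -0.04 (SE 0.0391). Every Ch25h-/- Tau+ library of Kcnq5 (4266 to 4753 CPM) lay below every Ch25h-/- Tau- library (4824 to 5311 CPM). The change of -0.13 (SE 0.0553, adjusted p = 0.493) was not called. How many of all genes separate in this way between groups of 4 libraries was not counted, so the separation alone is no result. The widest averaged tau change of the 13 genes was that of Kcnk2 in OPCs, 0.35 (SE 0.291, adjusted p = 0.977). Its levels were 107 ± 41.5, 153 ± 55.7, 122 ± 33.0 and 138 ± 67.5 CPM in the order given for Kcnip4. edgeR called none of the 13 in any of the 7 comparisons.

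Among members not called with the settings described, those with the smallest p for tau were checked in every class. In astrocytes Kcnma1 was at -0.34 (adjusted p = 0.0704), with 230 ± 30.8 CPM in Tau+ and 283 ± 37.2 in Tau-, and Kcnk1 at -0.48 (adjusted p = 0.152). Both were called with a term for the replicate division, Kcnma1 at -0.34 (adjusted p = 0.0395) and Kcnk1 at -0.46 (adjusted p = 0.0407). Kcnma1 was also called without a filter on low counts (-0.35, adjusted p = 0.0283) and on leaving out replicate 3 of Ch25h+/+ Tau+ (-0.40) or replicate 2 of Ch25h-/- Tau- (-0.38). In CA1 neurons Kcnj3 was at -0.17 (adjusted p = 0.394) and Kcnu1 at -0.52 (adjusted p = 0.599). In CA3 neurons Kcnh1 was at 0.21 (adjusted p = 0.258) and Kcnip3 at 0.33 (adjusted p = 0.297). Granule neurons had Kcnmb2 at -0.42 (adjusted p = 0.348) and Kcnv1 at -0.36 (adjusted p = 0.352), inhibitory neurons Kcnn2 at -0.16 (adjusted p = 0.591), and OPCs Kcnn2 at -0.37 (adjusted p = 0.370) and Kcnd3 at -0.23 (adjusted p = 0.433). Without a filter Kcnn2 in OPCs was called (-0.36, adjusted p = 0.0263). The widest averaged change outside microglia was 0.91 for Kcnmb2 in OPCs, which was not called.

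In oligodendrocytes the members leaned one way without a call: 34 of 42 were below 0 for tau and 8 above, with a median of -0.23 beside -0.01 over all genes. The listed partner genes and pumps, described below, had few members above 0 in oligodendrocytes too, 2 of 11 with a median of -0.09 and 2 of 10 with a median of -0.21. Kcnj9, which had the smallest p, was at -0.59 (adjusted p = 0.347). Background RNA could supply over 50% of the UMIs of 25 of these 42 members. Inhibitory markers in oligodendrocytes summed to a median of 1729 CPM in Tau+ (1396 to 2270) and 2097 in Tau- (1913 to 2213), and CA3 markers to 800 CPM in Tau+ (401 to 1188) and 1101 in Tau- (758 to 1363). Markers of other excitatory neurons went the other way, with medians of 466 CPM in Tau+ (121 to 714) and 163 in Tau- (124 to 586). The CA1 markers, at 129 and 109 CPM, and the granule markers, at 659 and 644, differed less. Their part in the lean was not tested, nor whether oligodendrocytes express some of the listed genes themselves.

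The Ch25h labels gave no called member. For Ch25h-/- minus Ch25h+/+ averaged over the Tau labels, edgeR called 0 of 404 tests, 11 had an unadjusted p under 0.05 and DESeq2 called 0, beside 0.015% of all genes over the 8 classes. In the Tau+ libraries the counts were 0, 18 and 0, beside 0.00599% of all genes, and in the Tau- libraries 0, 16 and 0, beside 0.00399%. For the difference between the tau effects they were 0, 25 and 0, beside 0% of all genes. These percentages are of genes called at an adjusted p under 0.05 and are no measure for the unadjusted counts. Unadjusted, the averaged comparison ran from 0 of 39 members in OPCs (293 of 9390 genes) to 4 of 59 in CA3 (390 of 13859). The difference ran from 2 of 62 members in CA1 (554 of 14286 genes) to 8 of 59 in CA3 (695 of 13859). In replicates 3 and 4 alone, 1 member was called in the Tau- libraries, Kcnip4 in CA1 neurons, beside 0.092% of all genes. The smallest adjusted p was 0.457, for Kcnk7 in granule neurons, a low two-pore gene at 0.333 ± 0.264 CPM in Ch25h-/- and 1.35 ± 0.647 in Ch25h+/+ (log2 fold change -2.02, SE 0.458). The averaged values of the microglial genes were 0.12 for Kcnj2 and -0.25 for Kcnrg. In CA1 neurons Kcnd3 was at 0.28, in inhibitory neurons Kcnip4 at 0.15, in astrocytes Kcnd1 at -0.69 and in OPCs Kcnj10 at -0.24, none called.

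The spread within groups, which includes the replicate division, bears on what size could be seen, though no such size was computed. Its median over members was 16.1% of the mean in granule neurons, 16.6% in inhibitory neurons, 32.5% in oligodendrocytes and 34.4% in microglia. The tightest members of the neuron classes were Kcnma1 at 4.14% in granule, 4.06% in CA1 and 3.30% in CA3 neurons, and Kcnq5 at 3.67% in inhibitory neurons. The widest member of each class had a mean of 1.56 to 15.6 CPM. It was Kcnmb4os2 in granule (89.3%) and CA3 neurons (73.7%), Kcng3 in CA1 neurons (52.2%), Kcnv1 in inhibitory neurons (52.6%), Kcnab2 in astrocytes (62.9%), Kcnt1 in oligodendrocytes (82.9%) and Kcnmb2 in OPCs (58.2%).

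Genes that work with potassium channels were taken from lists of known function. Of 18 listed channel partners, tested 92 times over the 8 classes, 1 rose and 1 fell for the averaged tau comparison, beside 1.14% of all tests over genes. Abcc8, the sulfonylurea receptor of neuronal ATP-sensitive channels, rose in CA3 neurons by 0.37 (SE 0.0663, adjusted p = 0.0471), beside 0.0433% of all genes there, and had 27.6 ± 2.95 CPM in Ch25h+/+ Tau-, 36.7 ± 2.29 in Ch25h+/+ Tau+, 33.6 ± 2.65 in Ch25h-/- Tau- and 41.5 ± 1.94 in Ch25h-/- Tau+. Ank3, a scaffold that anchors Kv7 channels, fell by 0.60 in microglia (adjusted p = 0.0205), 1 of 7 listed partners tested there beside 8.97% of all genes. Of 12 listed pumps and cotransporters, tested 79 times, 2 rose in astrocytes and 1 fell in microglia, again beside 1.14% of all tests. The sodium pump regulators Fxyd7 (0.89, adjusted p = 0.0128) and Fxyd1 (0.43, adjusted p = 0.0223) rose, beside 2.35% of all genes in astrocytes, and the pump subunit Atp1b1 fell by 0.65 in microglia (adjusted p = 0.00477), 1 of 8 tested there beside 8.97%. No gene of either list was called by edgeR in any other of the 7 comparisons.

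Levels over the 16 classes were also set against all 16350 genes with enough UMIs. For Kcnj10 the closest genes, by Pearson's r of log2(CPM + 1) over 16 classes, were Plekhb1 (0.920), Cmtm5 (0.912), C4b (0.899), 1700047M11Rik (0.896) and Scd2 (0.871). For Kcnc2 they were Cnr1 (0.883), Frmpd3 (0.867), Kcnq5 (0.855), Elavl2 (0.854) and Cntnap2 (0.833). The 16 points share libraries and depth.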

How the data were processed

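Nuclei of 16 hippocampi were profiled with the 10x Genomics 3' kit, version 3.1, per the labels' protocols. The deposited tables hold raw UMI counts per gene and barcode for all barcodes, whose headers name Cell Ranger 4, while the submitters' processing notes name Cell Ranger 3.1.0 and mm10. Strand and intron handling are not given in the sources used here. Barcodes with at least 500 UMIs, at least 300 genes and at most 5% mitochondrial UMIs were kept. All barcodes together held 51270831 to 84870650 UMIs per library. The nuclei with the highest doublet scores (scanpy 1.11.5) were marked, 0.8% per 1000 nuclei. All nuclei, the marked ones included, were clustered (3000 variable genes, 50 components, Leiden by igraph 0.11.9, resolution 1). Clusters were named with the marked nuclei still in them, and the marked nuclei were removed afterwards. A cluster took a class name only with at least 75% of that class's markers, at least 3, raised at least 2-fold. For the mixed class of other excitatory neurons 3 of its 14 markers sufficed. Of 8 classes chosen for testing, all had at least 20 nuclei in every library. The other excitatory class was not among those chosen.

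UMIs were summed per library and class and tested with edgeR 4.0.16 in R 4.3.3 (TMM, filterByExpr, quasi-likelihood, Benjamini-Hochberg), 1 fit per class with 4 group means. The script was tested on simulated data. Alternatives were DESeq2 1.42.0, other normalization, filter, depth and doublet settings, a term for the replicate division, each division alone and each library left out. Background is the profile of barcodes under 100 UMIs, at the median depth of barcodes ranked 40001 to 60000 for each nucleus. Coordinates are those of GENCODE M21 (GRCm38), in which 32235 identifiers matched.

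The genes and lists were chosen with earlier results of these data known. Named genes are the leading genes of each family and class, all called genes, those beside the threshold, those with the smallest p per class and those with the widest and narrowest spread. Some members are counted but not reported by name here. Replicates were numbered in deposition order. Each value is limited by counting error, and intervals between groups by 4 libraries each.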

Additional observations from a re-analysis of the deposited data

Results flagged for a closer look

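Of 136 groups of 4 libraries examined for named genes, 9 held a library whose distance from its nearest neighbour relative to the group's range exceeded Dixon's critical value for 4 samples. Chance alone flags about 1 group in 20. Kcnd3 in CA1 neurons stood at 153.94 CPM in one Ch25h-/- Tau- library, with the others at 88.0 to 92.5 CPM. Kcnh1 in CA3 neurons stood at 223.16 CPM in one Ch25h+/+ Tau- library, with the others at 173.5 to 179.0 CPM. Kcnj3 in CA1 neurons was low at 536.42 CPM in one Ch25h-/- Tau- library, with the others at 568 to 572 CPM. In OPCs, Kcnj10 reached 63.466 CPM in one Ch25h-/- Tau+ library (others 49.9 to 51.2), and Kcnn2 reached 316.96 CPM in one Ch25h+/+ Tau- library (others 182 to 198). Kcnj9 in oligodendrocytes reached 20.678 CPM in one Ch25h-/- Tau- library (others 11.0 to 11.3). Kcnq1 in granule neurons was high at 3.3561 CPM in one Ch25h+/+ Tau+ library (others 1.98 to 2.17) and low at 1.9663 CPM in one Ch25h-/- Tau- library (others 3.41 to 3.63). Kcns3 in CA3 neurons was low at 3.146 CPM in one Ch25h+/+ Tau- library (others 6.71 to 7.40). With the settings described edgeR called none of these genes in the class named. Without a filter on low counts it called Kcnn2 in OPCs for the averaged tau comparison, and DESeq2 called Kcnh1 in CA3 neurons between the Ch25h-/- groups.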

How the results depend on the processing

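Counts of called members moved with the settings as follows. For tau averaged over the Ch25h labels, 3 members became 8 without a filter on low counts, 7 with a term for the replicate division, 8 in replicates 1 and 2 alone and 0 in replicates 3 and 4 alone. Leaving out each library gave 3 to 6, the 6 without Ch25h+/+ Tau+ replicate 3. For tau between the Ch25h+/+ groups, 2 became 4 in replicates 1 and 2 alone and 0 in replicates 3 and 4 alone, and leaving out each library gave 2 to 3. Between the Ch25h-/- groups, 2 became 6 with DESeq2, 5 without a filter and 5 in replicates 1 and 2 alone. Leaving out each library gave 0 to 4: 0 without replicate 1 or 4 of Ch25h-/- Tau+ or replicate 1 or 2 of Ch25h-/- Tau-, 1 without replicate 2 of Ch25h-/- Tau+ or replicate 3 of Ch25h-/- Tau-, and 4 without replicate 3 of Ch25h-/- Tau+. For the Ch25h comparison in Tau- libraries, 0 became 1 in replicates 3 and 4 alone (Kcnip4 in CA1 neurons, -0.42, adjusted p = 0.0254). The cause was not tested. Which members were called moved as well. With at least 1000 UMIs per nucleus Kcnrg in microglia lost its averaged call. With doublets kept, or with a term for the replicate division, Kcnj2 in microglia was called between the Ch25h-/- groups. No listed result changed direction, and the other comparisons stayed at 0 calls under every alternative. The averaged changes stayed between 2.03 and 2.36 for Kcnj2, -1.11 and -0.96 for Kcnk12 and -0.73 and -0.54 for Kcnrg when a library was left out. The highest class was the same for 83 of 88 genes with at least 1000 UMIs per nucleus and for 85 with doublets kept, but for 71 in the Ch25h+/+ Tau- libraries alone. No paired analysis was possible because the replicate numbers follow deposition order and the labels pair no samples. The numbers do share a division across groups, which the term for it takes up. Microglial depth, 241267 to 1005756 UMIs per library, limits what could be seen there.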

Other observations

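The replicate division touched potassium channel genes, like genes at large, in every class tested. With a term for it, replicates 3 and 4 differed from 1 and 2 for 10 of 72 members in granule neurons (1 higher, 9 lower), beside 16.5% of all genes, for 10 of 59 in CA3 neurons (1 higher, 9 lower), beside 15.8%, and for 12 of 42 in oligodendrocytes (3 higher, 9 lower), beside 15.9%. Over all genes the calls were 944 higher and 1550 lower in granule neurons, 902 and 1286 in CA3 neurons and 737 and 1169 in oligodendrocytes, and more were lower than higher in each of the other classes too. Members in the other classes divided as follows: 8 of 62 differed in CA1 neurons (4 higher, 4 lower), beside 15.2%, 5 of 67 in inhibitory neurons (3 higher, 2 lower), beside 12.4%, and 8 of 42 in astrocytes (4 higher, 4 lower), beside 12.8%. In OPCs 2 of 39 differed (1 higher, 1 lower), beside 7.56%, and in microglia 2 of 21 (1 higher, 1 lower), beside 7.39%. By class the members lay above or below the share over all genes, so these counts are no result about potassium channel genes as a group. Kcnk2 was lower in replicates 3 and 4 in 6 classes (-1.59 to -0.65), Kcnip4 in 4 (-0.53 to -0.40) and Kcnk12 in 4 (-0.74 to -0.25), and Kcna1 was higher in 5 (0.33 to 0.41). Ch25h in microglia had 33 UMIs in Ch25h+/+ Tau+, 7 in Ch25h-/- Tau+ and 0 in both Tau- groups.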
